A study of Mus musculus with 12 samples.

Results

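Macula densa cells were compared with control cells from the same kind of mouse on control diet, across every gene that could be tested. The comparison used 6 of the 12 RNA sequencing libraries of the study, chosen by their labels: 2 of macula densa cells and 4 of control cells. All mice were C57BL/6 animals of the nNosCreERT2-mTmG model, and both populations were sorted from kidney cortex after 14 days on control diet. In this model the promoter of Nos1, which encodes neuronal nitric oxide synthase, drives a CreERT2 recombinase that turns on membrane GFP, and every other cell keeps the red membrane protein tdTomato. Green cells were taken as macula densa cells, and the reddest cells were taken as controls meant to stand for distal tubule and collecting duct epithelium. The labels give no age, no sex and no schedule for inducing the recombinase. They also do not say that the libraries of a group came from separate mice, so the p-values measure the spread between these libraries, which may be technical in part.

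The macula densa is a small epithelial plaque where the thick ascending limb passes the glomerulus of its own nephron. These cells take up sodium, potassium and chloride through the cotransporter Slc12a1 and use it as a sensor of tubular salt. They answer with signals to the arterioles and to renin cells, among them nitric oxide made by Nos1 and prostaglandins made through Ptgs2, and in this way set filtration and renin release.

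Total counts ran from 8637665 to 11458346 per library, and nuclear protein-coding genes held 1671776 to 2141764 of them. A single noncoding gene that lies over ribosomal RNA sequence, Gm42418, took 53.5% to 62.7% of the counts. Levels below are CPM, counts scaled to a common library size with TMM (a trimmed mean of ratios). A total of 3 counts in a library corresponded to 0.244 to 0.328 CPM, a limit that covers counting error only. The mitochondrial share of counts was 11.7% and 14.1% in the macula densa libraries and 3.81% to 9.98% in control cells.

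The 3 markers given for the macula densa, Nos1, Pappa2 and Slc12a1, were all higher in the sorted green cells, as the label of that population calls for. The control cells also held RNA that their label does not name. Control-cell replicates 1 to 4 held 153, 368, 535 and 1080 CPM of collecting duct principal cell markers in all. The same libraries held 1694, 1348, 873 and 66.2 CPM of podocyte markers and 1952, 1621, 1092 and 67.6 CPM of endothelial markers. The macula densa libraries held 199 and 39.7 CPM of podocyte markers and 221 and 35.4 CPM of endothelial markers. Kdr, the endothelial VEGF receptor, was at 507, 414, 250 and 8.16 CPM against 54.5 and 5.62 CPM. So 3 of the 4 control libraries carried glomerular and endothelial RNA, and replicate 4 stood apart with little of it and with the most collecting duct RNA. Across genes, its log2 CPM had a Pearson correlation of 0.79 to 0.88 with the other control libraries, which had 0.93 to 0.95 among themselves, and of 0.86 and 0.87 with the macula densa libraries. Genes are not independent replicates in such a correlation. Many results that rest on the control cells are therefore given with and without replicate 4.

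**Figure D1:**
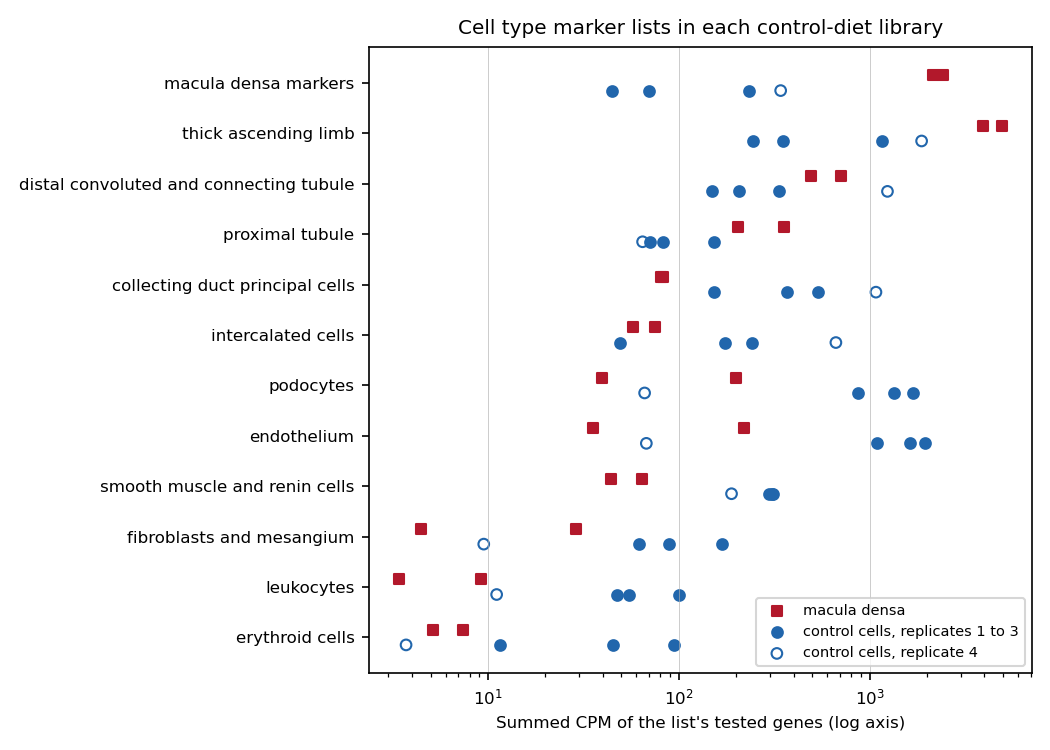
Summed CPM (log axis) of the tested genes in each of 12 cell type marker lists, one point per control-diet library; squares are the 2 macula densa libraries, filled circles control-cell replicates 1 to 3 and the open circle replicate 4. Podocyte and endothelial sums of 873 to 1952 CPM in control replicates 1 to 3 contrast with 66.2 and 67.6 CPM in replicate 4.

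Of 14180 genes tested, 938 (6.61%) differed between the populations at an edgeR adjusted p of 0.05. In macula densa cells 382 genes (2.69%) were higher and 556 (3.92%) were lower. Counts of called genes in the lists below are to be read against these shares. The lists were written with earlier results of these data known, so their counts are descriptive and are no test. The median log2 fold change was 2.14 among the higher genes and -2.73 among the lower ones, and -0.05 over all genes tested. In bulk libraries a lower level cannot tell fewer cells of a type from less RNA per cell. Both macula densa libraries lay outside the range of the 4 control libraries for all 382 higher genes and for 543 of the 556 lower ones. Over all genes tested, 15.2% lay above that range in both and 16.7% below. Since calls favour groups that do not overlap, these counts describe the called genes and lend them no support. The size and balance of the set depended on the control cells and on the scaling. Without control-cell replicate 4, 2490 genes passed (876 higher, 1614 lower), and 935 of the 938 were among them. With library totals alone in place of TMM, the median of all genes moved to 0.12 and the split to 542 higher and 328 lower. The macula densa side rested on 2 libraries, and without replicate 1 or 2 of them 261 and 122 genes passed. Among 201 called genes followed through 23 alternative settings (78 higher, 123 lower), 28 higher and 12 lower ones passed in every setting where they could be tested, and none changed sign. The call was lost in 4 or more settings for 34 higher and 57 lower ones, not all of which are marked below.

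**Figure D2:**
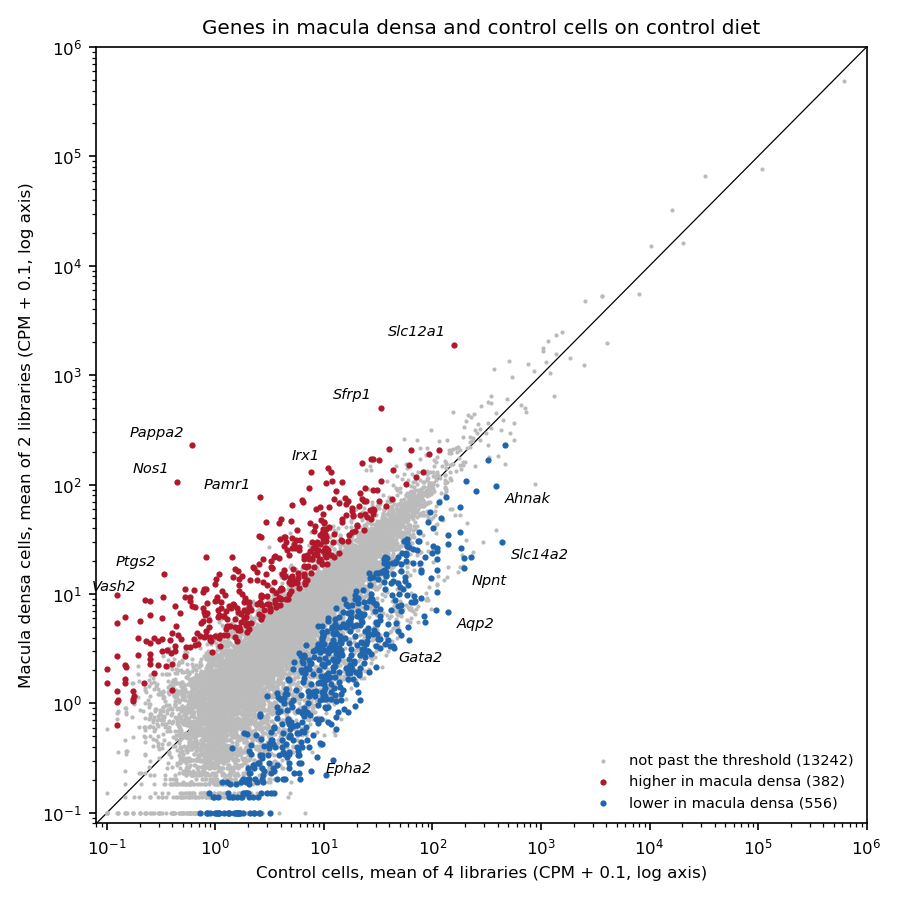
Mean level of each of 14180 genes in the 4 control-cell libraries (x) and the 2 macula densa libraries (y), both as CPM plus 0.1 on log axes; red and blue mark the 382 genes called higher and the 556 called lower, and the line marks equal levels. Pappa2 and Nos1 lie farthest above the line at 229 and 106 CPM against less than 1 CPM.

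Pappa2 and Nos1 were near 0 in control cells. Pappa2, a protease that frees insulin-like growth factors from their binding proteins, lies on chromosome 1 from 158711727 to 158980490. It was at 228 and 231 CPM in the macula densa libraries and at 0.219, 1.22, 0.190 and 0.413 CPM in control replicates 1 to 4, which gave 8.75 on the log2 scale, standard error 0.67 (edgeR adjusted p 5.52e-05). Nos1 lies on chromosome 5 from 117781032 to 117958840, and its own promoter chose the cells, so its level checks the sort. It was at 100 and 111 CPM against 0.109 to 0.470 CPM, with 979 and 1360 counts against 1 to 5. Slc12a1, on chromosome 2 from 125152505 to 125230002, was at 1769 and 2026 CPM in macula densa cells and at 41.8, 59.4, 223 and 309 CPM in the control libraries (log2 fold change 3.58 ± 0.66 (SE), edgeR adjusted p 0.00928). The control cells thus carried the cotransporter at a level that varied widely between libraries. Its call was lost in 2 alternatives, and without control-cell replicate 4 its log2 fold change was 4.13. Of the 6 tested genes in a list of 7 macula densa markers, 4 were higher and 0 lower, with a median of 4.72. The fourth was Ptgs2. Avpr1a, a vasopressin receptor, was at 33.0 and 40.3 CPM against 1.86, 4.70, 3.43 and 19.9 CPM and did not pass (edgeR adjusted p 0.123), though it did without replicate 4 (0.00605).

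**Figure D3:**
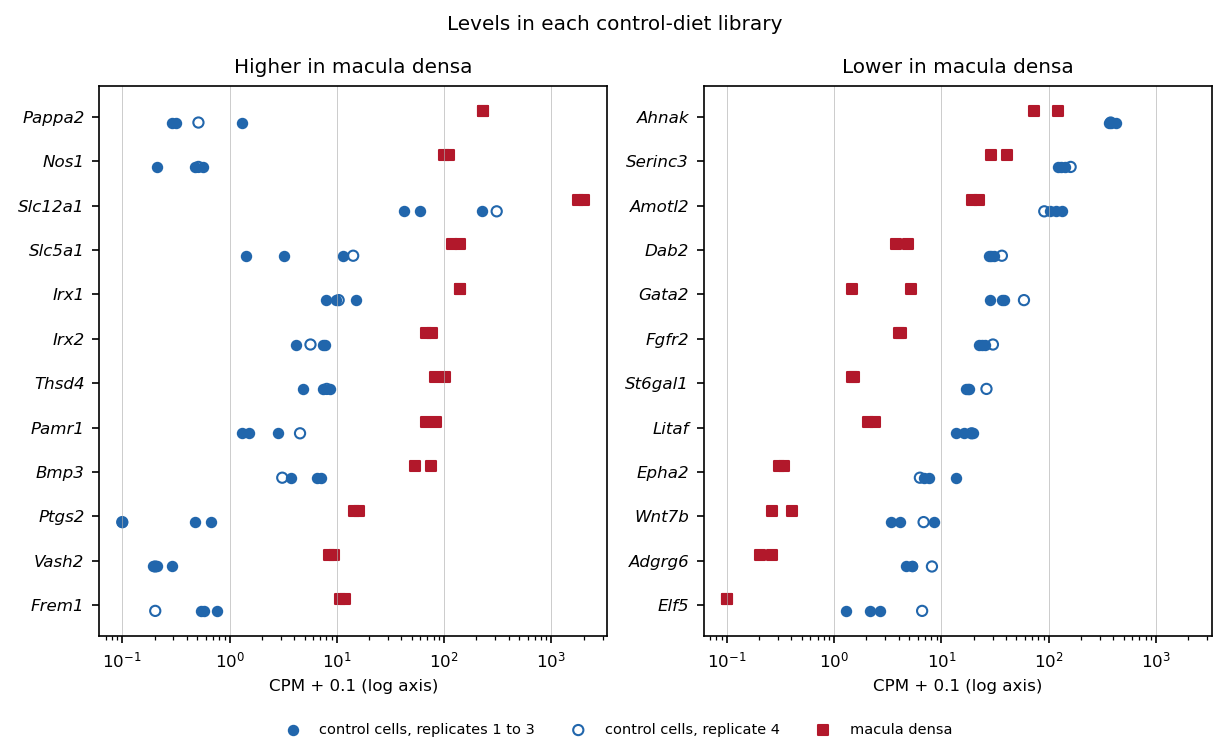
Level of 12 genes called higher (left) and 12 called lower (right) in macula densa cells, as CPM plus 0.1 on a log axis, one point per library; squares are macula densa libraries, filled circles control-cell replicates 1 to 3 and open circles replicate 4. The genes shown were picked from the called ones, so the lack of overlap between the populations lends them no support. Slc12a1 spreads from 41.8 to 309 CPM among control cells.

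The genes with the largest increases were thinly expressed in control cells. Slc4a10, a sodium-driven bicarbonate transporter best known from neurons, had 77 and 140 counts in the macula densa libraries and 1 count over the 4 control libraries, a ratio of 394 (95% counting interval 69.9 to 15625, exact). Slc6a7, a proline transporter of brain, likewise had 41 and 78 counts against 1 (ratio 216, interval 38.0 to 8601). Vash2, a tubulin carboxypeptidase also described as an angiogenic factor, was at 8.31 and 9.29 CPM against 0.0952 to 0.188 CPM (log2 fold change 5.98 ± 0.45, edgeR adjusted p 5.52e-05). Ndst4, a heparan sulfate sulfotransferase, had a log2 fold change of 5.71, Nt5c1a, a cytosolic nucleotidase that makes adenosine, 5.60, and both Plcxd3 and Unc5d, a netrin receptor, 5.28. These 7 genes passed in every setting in which they could be tested. Nt5c1a, however, had its only control counts in replicate 4 and reached 8.59 without it. Nsg2, a neuronal endosome protein, was at 20.2 and 22.9 CPM against 0 to 2.0 CPM (4.88), and Adgrf1, an adhesion receptor, at 5.23 and 6.60 CPM against 0 to 0.476 CPM (4.64). Aard was the 1 named protein-coding gene with 0 counts in all 4 control libraries and at least 10 in each macula densa library. It had 28 and 13 counts and was at least 6.52-fold higher against a floor of 3 counts per library, with a call that was lost in 2 alternatives.

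Of the 10 higher genes with the smallest p-values, Nos1, Vash2, Pappa2, Slc4a10 and Pamr1 are also among the largest increases, and the others had smaller fold changes. Ksr2, a scaffold of the MAP kinase cascade on chromosome 5 from 117414000 to 117775003, was at 16.3 and 17.4 CPM against 1.53, 1.60, 1.14 and 1.34 CPM (log2 fold change 3.57 ± 0.23, edgeR adjusted p 1.74e-05). It lies next to Nos1, ending before the start of Nos1, whose promoter drives the recombinase in this model; the part of that position in its level was not tested. Thsd4, a fibrillin-binding matrix protein, was at 82.6 and 102 CPM against 4.70 to 8.57 CPM (3.69 ± 0.30). Prkd1, protein kinase D1, was at 31.7 and 31.2 CPM against 2.62 to 4.98 CPM (3.02 ± 0.25). Atp2b4, a plasma membrane calcium pump, was at 104 and 109 CPM against 11.3 to 18.1 CPM (2.88 ± 0.25). Control replicate 4 lay among or near the other control libraries for these genes. Pde1b, a phosphodiesterase activated by calcium and calmodulin, was at 6.57 and 9.77 CPM against 0.571 to 0.875 CPM (3.46 ± 0.36). All of these genes kept their call in every setting.

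Most genes of the thick ascending limb had higher levels in macula densa cells, but few passed the test. Of 17 tested thick ascending limb markers, 6 were higher and 0 lower: Slc12a1, Cldn10, Ptger3, Casr, Ppp1r1a and Tmem72. The list's median log2 fold change was 1.77, and 16 of 17 lay above 0. The count ran from 0 without macula densa replicate 2 and 1 without replicate 1 to 12 without control-cell replicate 4. Summed over the list, control replicates 1 to 4 held 244, 351, 1157 and 1874 CPM, against 3922 and 4936 CPM in macula densa cells. Cldn10, the claudin that forms a paracellular sodium pathway, was at 14.2 and 17.4 CPM against 0.656, 1.41, 2.38 and 4.86 CPM (2.76 ± 0.65, edgeR adjusted p 0.0271). Casr, the calcium-sensing receptor, was at 158 and 182 CPM against 6.12, 10.5, 37.9 and 59.0 CPM (2.58 ± 0.62). The classical thick ascending limb products did not pass. Umod, the secreted protein uromodulin, was at 399 and 528 CPM against 52.7, 54.9, 180 and 325 CPM (1.60 ± 0.83, edgeR adjusted p 0.266). Egf, the growth factor precursor, was at 916 and 1365 CPM against 89.9, 127, 512 and 739 CPM (1.64 ± 0.65, edgeR adjusted p 0.146). Both macula densa libraries lay above all 4 control libraries for Umod and Egf. Kcnj1, the apical potassium channel ROMK, was at 131 and 154 CPM and overlapped control replicate 4 at 132 CPM.

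Among 21 genes of apical and basolateral salt transport, 2 were higher (Slc12a1 and Slc9a2) and 0 lower, with a median of 1.18. This count was 0 without macula densa replicate 2 and 13 without control-cell replicate 4. Slc9a2, a sodium/proton exchanger of the apical membrane, was at 33.6 and 32.7 CPM against 0.656, 2.63, 4.86 and 8.78 CPM (2.96 ± 0.55, edgeR adjusted p 0.00973). Fxyd2, a regulatory subunit of the sodium pump, was at 219 and 302 CPM against 10.5, 26.4, 72.5 and 110 CPM. It did not pass (edgeR adjusted p 0.0660), but did without control-cell replicate 4 (0.0107). Of 11 distal convoluted and connecting tubule genes, 1 was higher and 0 lower, with a median of -0.19. It was Klhl3, an adaptor that targets WNK kinases for degradation, at 69.2 and 72.0 CPM against 7.76 to 33.4 CPM. That call was lost without either macula densa library and without control-cell replicate 3, and when only the 6 control-diet libraries were fitted. Calb1, the calcium-binding protein of the connecting tubule, was at 15.3 and 16.3 CPM against 16.1 to 159 CPM and did not pass. Its log2 fold change was -1.87, and -0.60 without control-cell replicate 4. Without that library 4 genes of the distal convoluted and connecting tubule list were higher, and the list's median was 0.47.

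A wider look at transporters, in a list chosen after the data were seen, covered 236 solute carriers. Of these 18 were higher and 6 lower, against 2.69% and 3.92% of all genes, and the median was 0.20. Without a single library the higher count ran from 2 (macula densa replicate 2) to 35 (control-cell replicate 4). Slc5a1, the sodium-glucose cotransporter SGLT1, lies on chromosome 5 from 33104219 to 33162870. It was at 142 and 119 CPM against 1.31, 3.10, 11.4 and 14.1 CPM (log2 fold change 4.13 ± 0.76, edgeR adjusted p 0.00943). Glutamate (Slc1a3, 1.87), nucleoside (Slc29a1, 1.64), neutral amino acid (Slc7a8, 1.92) and anion exchange (Slc4a2, 0.97) carriers were also higher, as was Slc15a1, an intestinal-type peptide transporter (3.38). The calls of Slc15a1 and Slc4a2 were lost in 12 of 22 and 9 of 23 alternatives. Proximal tubule markers, at 205 and 354 CPM against 64.6 to 153 CPM, lay in the same direction, and their part in these carriers was not tested. Slc1a3 was at 9.44 and 9.29 CPM and within 2.44 to 2.69 CPM in all 4 control libraries. Lower were Slc6a6, the taurine transporter, at 12.1 and 6.76 CPM against 45.1 to 80.9 CPM (-2.85 ± 0.48), and Slc14a2, the urea transporter of the inner medullary collecting duct, at 46.5 and 12.7 CPM against 230 to 680 CPM (-3.90 ± 0.90). Slc12a4, Slc41a2, Slc43a3 and Slc4a11 were also lower, calls that were lost in 7 of 23, 15 of 22, 14 of 23 and 11 of 22 alternatives. Slc43a3 overlapped between the populations, with 0.413 CPM in control replicate 4 and 14.0 to 17.1 CPM in the others.

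In the prostaglandin pathway 4 of 15 tested genes were higher and 2 lower, with a median of -0.30 (0.18 without control-cell replicate 4). Ptgs2, the inducible cyclooxygenase, lies on chromosome 1 from 150100031 to 150108227 and was at 15.9 and 14.3 CPM in macula densa cells. Control cells had 0, 0.376, 0.571 and 0 CPM (5.85 ± 0.68, edgeR adjusted p 0.000611). Pla2g4a, the phospholipase that frees arachidonic acid for it, was at 21.4 and 23.8 CPM against 3.28 to 5.79 CPM (2.28 ± 0.27). Tbxas1, thromboxane synthase, was at 16.7 and 12.5 CPM against 1.34 to 2.16 CPM (3.12 ± 0.41). The receptor Ptger3 was higher, at 49.4 and 42.7 CPM against 1.42, 3.01, 4.09 and 10.8 CPM (3.25 ± 0.64). Ptgs1, the constitutive cyclooxygenase, was lower at 2.67 and 2.20 CPM against 8.75 to 21.3 CPM (-2.44 ± 0.44), and so was the receptor Ptger1 at 0.718 and 0.244 CPM against 5.03 to 23.9 CPM (-4.73 ± 1.06). Ptgs2, Pla2g4a and Tbxas1 kept their calls in every setting. The lower calls were 0 without either macula densa library and 4 without control-cell replicate 4. Ptger1 overlaps another gene on the other strand and Tbxas1 overlaps Gm42962, and whether the counts were made by strand is not given in the sources used here.

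Of 18 tested genes of nitric oxide and cyclic GMP, Nos1, whose promoter chose the cells, was higher and Prkg2 lower, and the median was -1.89. With 1 call in each direction, this list is close to the shares over all genes, 2.69% higher and 3.92% lower. Prkg2, the membrane-bound cyclic GMP kinase, had 1 count over both macula densa libraries and 0.658 to 1.96 CPM in control cells, a ratio of 29.2. Its call was lost in 7 alternatives. Without control-cell replicate 4, 8 genes of the list were lower. Endothelial markers, at 221 and 35.4 CPM against 67.6 to 1952 CPM, moved the same way, and their part in this was not tested. In the IGF axis, 2 of 10 genes were higher, Pappa2 and Igf2r, and 2 lower, Igfbp7 and Stc1, with a median of -0.80. Igf2r, the receptor that clears insulin-like growth factor 2, was at 45.3 and 54.7 CPM against 22.7 to 29.0 CPM (1.01 ± 0.18, edgeR adjusted p 0.00786). Stc1, stanniocalcin 1, an inhibitor of the pappalysin proteases to which Pappa2 belongs, had 1 count over both macula densa libraries and 14 to 57 counts in each control library (ratio 74.9, interval 13.2 to 2982). Igfbp7 was at 22.5 and 21.4 CPM against 73.9 to 96.3 CPM (-1.95 ± 0.41). Igfbp5, the binding protein that Pappa2 cuts, was at 164 and 39.6 CPM against 1424, 1277, 746 and 73.4 CPM and did not pass (edgeR adjusted p 0.148). Its control values followed those of the podocyte and endothelial lists, and the part of those cells in its level was not tested.

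Receptors for hormones and metabolites gave 5 higher and 2 lower genes of 26 (2.69% and 3.92% of all genes), with a median of -0.55. Beside Casr and Ptger3 these were Pth1r, Gcgr and Erbb4. Pth1r, the parathyroid hormone receptor, was at 92.0 and 85.5 CPM against 19.7 to 36.5 CPM (1.53 ± 0.24, edgeR adjusted p 0.00373). Gcgr, the glucagon receptor, was at 15.3 and 22.1 CPM against 0.984, 1.03, 2.29 and 5.48 CPM (2.93 ± 0.54). Erbb4, the neuregulin receptor, was at 105 and 111 CPM against 6.34, 6.30, 13 and 21.3 CPM (3.21 ± 0.53). Adora1, the adenosine A1 receptor, was lower at 0.923 and 0.570 CPM against 2.95 to 10.3 CPM (-2.92 ± 0.59). The higher count was 1 without macula densa replicate 2, and Pth1r kept its call in every setting. Enzymes of cyclic AMP and cyclic GMP, a list chosen after the data were seen, had 2 higher genes (Pde10a and Pde1b) and 4 lower (Adcy5, Pde1c, Pde3b and Pde8b) of 25, with a median of -1.0. The phosphodiesterase 1 family was thus split, since Pde1c was at 1.85 and 2.04 CPM against 4.70 to 14.8 CPM (-2.17 ± 0.41) while Pde1b was higher.

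Ion channels split evenly, with 5 of 54 tested voltage-gated and potassium channel genes higher, 5 lower and a median of -0.61. Of all genes, 2.69% were higher and 3.92% lower. Without macula densa replicate 2 none passed, and without control-cell replicate 4 the counts were 8 and 11. Pore subunits of L-type calcium channels differed in direction: Cacna1d was at 23.0 and 29.3 CPM against 3.06 to 7.23 CPM (2.39 ± 0.45, edgeR adjusted p 0.00982), and Cacna1c at 0.616 and 0.652 CPM against 2.58 to 4.81 CPM (-2.47 ± 0.58, edgeR adjusted p 0.0284). Of their beta subunits, Cacnb1 was higher (1.24) and Cacnb2 lower (-2.57). The call of Cacnb1 was lost in 12 of 22 alternatives, and those of Cacna1c and Cacnb2 in 5 each. Small-conductance calcium-activated potassium channels were split in the same way, with Kcnn2 higher at 5.23 and 3.83 CPM against 0.219 to 1.34 CPM (2.62 ± 0.54) and Kcnn3 lower at 0.205 and 0.163 CPM against 2.07 to 2.79 CPM (-3.59 ± 0.66). Kcnc2, a fast potassium channel of neurons, and Scn4b, a sodium channel beta subunit, were also higher (2.28 and 2.34). Their calls were lost in 5 of 22 and 10 of 23 alternatives. Kcne1, a potassium channel beta subunit, was lower at 0.821 and 0.652 CPM against 3.61 to 39.3 CPM (-4.48 ± 1.0). Smooth muscle and renin cell markers, with which Cacna1c is shared, were lower too, as given below, and their part in that call was not tested.

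Among secreted and matrix-associated factors 6 of 28 were higher and 7 lower, and the median was -1.80. This list was written with earlier results known, and Pamr1, Frem1 and Vash2 in it are also among the largest increases. Pamr1, a secreted protein with a serine protease-like domain, was at 84.7 and 67.7 CPM against 1.20, 1.41, 2.76 and 4.44 CPM (4.95 ± 0.50, edgeR adjusted p 0.000398). Bmp3, an antagonist within the bone morphogenetic protein family, was at 75.4 and 54.0 CPM against 3.0 to 7.0 CPM (3.69 ± 0.59). Frem1, an extracellular matrix protein of basement membranes, was at 10.5 and 11.7 CPM against 0.103 to 0.658 CPM (4.67 ± 0.49). Fgf9 was at 19.1 and 24.6 CPM against 0.846 to 7.75 CPM (2.70 ± 0.61). Ccn3 had 25 and 32 counts against 1 over the control libraries (ratio 103, interval 17.8 to 4156). Pamr1, Bmp3, Frem1 and Vash2 kept their calls in every setting. Sfrp1, a secreted Wnt antagonist chosen after its values were seen, was at 501 and 504 CPM against 4.37, 12.4, 45.7 and 69.8 CPM (3.92 ± 0.82, edgeR adjusted p 0.0173). Wnt7b, a Wnt ligand of the collecting duct, was lower at 0.308 and 0.163 CPM against 3.28 to 8.48 CPM (-4.53 ± 0.70). The other lower genes were Ccn1, Thbs1, Sparcl1, Spon1, Angpt2 and Gdf15, with log2 fold changes from -1.98 (Spon1) to -3.74 (Angpt2). Ccn1 and its relative Ccn3 thus differed in opposite directions, Ccn1 being at 1.64 and 0.570 CPM against 6.20 to 9.08 CPM (-2.82 ± 0.48). No lower call was left without macula densa replicate 2, and 12 were made without control-cell replicate 4.

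**Figure D4:**
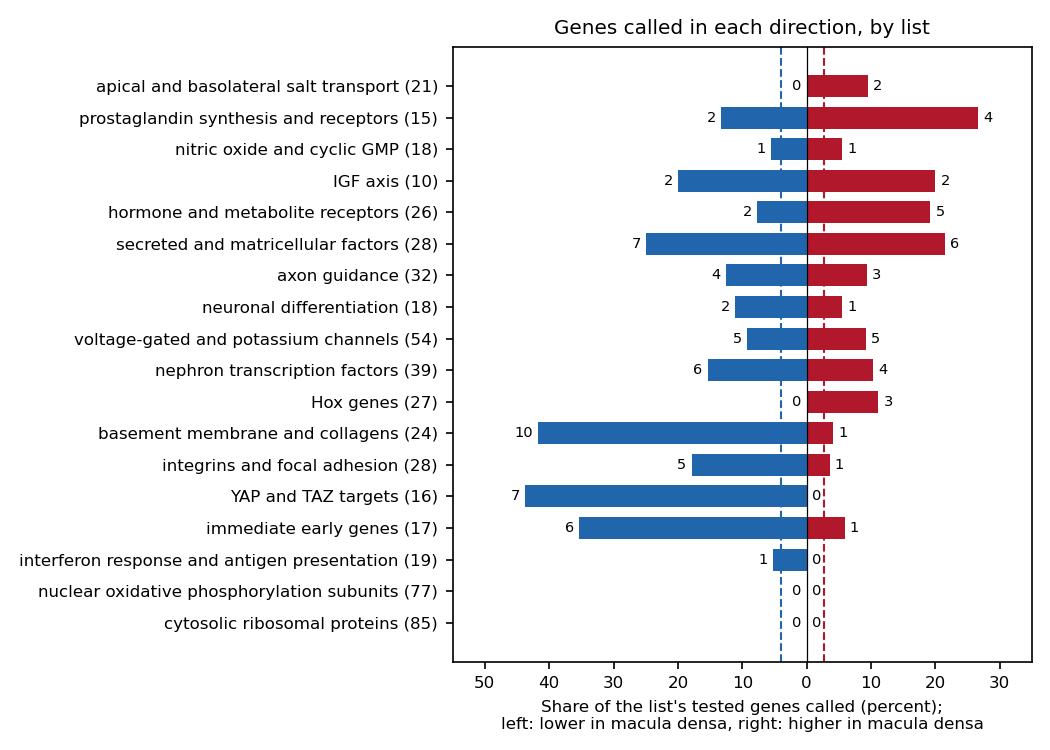
Share of each list's tested genes (number in brackets) called lower (left, blue) or higher (right, red) in macula densa cells, in percent, with the number of calls at the bar ends; dashed lines mark the shares over all genes, 3.92% and 2.69%. Basement membrane genes had 10 of 24 called lower and YAP and TAZ targets 7 of 16. The lists were written with earlier results of these data known.

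Axon guidance genes showed 3 higher (Sema4a, Slit2 and Ntn1) and 4 lower members (Sema3f, Plxna1, Ntn4 and Epha2) of 32, with a median of -0.98. Of all genes, 2.69% were higher and 3.92% lower. Slit2, a secreted guidance cue, was at 164 and 152 CPM against 5.36, 10.1, 20.4 and 53.1 CPM (2.83 ± 0.63, edgeR adjusted p 0.0217). Robo2, a receptor for it, was at 128 and 141 CPM against 40.0, 35.2, 21.2 and 1.55 CPM and did not pass (edgeR adjusted p 0.0970). Robo2 is also made by podocytes. Its control values followed the podocyte list, and its macula densa values did not, that list being at 199 and 39.7 CPM there. The part of podocytes in its level was not tested. Ntn1 was at 8.62 and 10.8 CPM against 1.97 to 3.20 CPM (1.93 ± 0.32), and Ntn4 at 35.3 and 19.0 CPM against 67.0 to 138 CPM (-1.90 ± 0.46). Sema4a kept its call in every setting, at 17.1 and 13.2 CPM against 1.97 to 3.93 CPM (2.41 ± 0.28). Epha2, an ephrin receptor kinase on chromosome 4 from 141301240 to 141329384, did so among the lower genes. It had 2 and 3 counts in the macula densa libraries and 60 to 124 in the control libraries (-5.14 ± 0.62, edgeR adjusted p 0.000766). Of 18 genes of neuronal differentiation, 1 was higher (Nsg2) and 2 lower (Dpysl3 and L1cam), with a median of -0.51. The calls of Dpysl3 and L1cam were lost in 13 and 11 of 23 alternatives.

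Among transcription factors of the nephron 4 of 39 were higher (Irx1, Irx2 and Tfap2b among them) and 6 lower (Elf5, Gata2, Gata3, Sim2, Klf2 and Klf4), with a median of -0.02. Irx1 and Irx2, neighbouring homeobox genes of the loop of Henle lineage, lie on chromosome 13 from 71957921 to 71963723 and from 72628820 to 72634198. Irx1 was at 142 and 140 CPM against 9.73, 7.89, 15 and 10.3 CPM (3.71 ± 0.38, edgeR adjusted p 0.000398), and Irx2 at 77.5 and 68.0 CPM against 7.33, 4.04, 7.62 and 5.58 CPM (3.56 ± 0.35). Both kept their calls in every setting and were as low in control replicate 4 as in the others. Tfap2b, a factor of the distal nephron, was at 62.9 and 73.8 CPM against 3.61, 7.89, 14.7 and 29.0 CPM (2.31 ± 0.56, edgeR adjusted p 0.0308). Elf5, a principal cell factor, had 0 counts in both macula densa libraries and 11 to 63 in each control library, so it was at least 11.2-fold lower. Gata2 was at 5.13 and 1.38 CPM against 28.4 to 58.7 CPM (-3.65 ± 0.69), and Gata3, a factor of the distal nephron and collecting duct, at 3.28 and 2.28 CPM against 9.84 to 31.2 CPM (-3.01 ± 0.56). Klf2, an endothelial factor, was at 5.23 and 1.30 CPM against 59.9, 45.9, 57.4 and 7.96 CPM. The calls of Klf2 and Sim2 were lost in 6 and 15 of 23 alternatives. The lower count ran from 0 without macula densa replicate 2 to 8 without control-cell replicate 4, which also gave 12 higher genes. Hnf4a, the proximal tubule factor, was at 6.26 and 8.15 CPM against 1.45 to 3.62 CPM and did not pass (edgeR adjusted p 0.0707). Of 27 Hox genes, 3 were higher (Hoxc9, Hoxc10 and Hoxd11), against 2.69% of all genes, and 0 lower, with a median of 0.75. Hoxc10 and Hoxd11 overlap other genes on the same strand, so their counts are uncertain.

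Sec14l1, a lipid-binding protein chosen after its values were seen, was at 195 and 231 CPM in macula densa cells against 42.2, 31.3, 55.4 and 29.0 CPM (2.43 ± 0.38, edgeR adjusted p 0.00366) and kept its call in every setting.

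All 10 tested principal cell markers of the collecting duct lay below 0. Of these, 7 were lower and 0 higher (median -3.90): Aqp2, Aqp3, Aqp4, Scnn1b, Hsd11b2, Fxyd4 and Elf5. Aqp2, the vasopressin-regulated water channel, was at 9.75 and 3.83 CPM against 47.5, 85.0, 175 and 252 CPM (-4.37 ± 0.89, edgeR adjusted p 0.0148). Hsd11b2, the enzyme that keeps glucocorticoids off the mineralocorticoid receptor, was at 7.39 and 3.42 CPM against 22.7, 57.5, 78.0 and 183 CPM (-3.98 ± 0.92). Avpr2, the vasopressin V2 receptor, was at 1.85 and 0.896 CPM against 2.30 to 26 CPM and did not pass (edgeR adjusted p 0.0749). No principal cell gene passed without either macula densa library, and 9 and 8 passed without control-cell replicates 1 and 4. Without control-cell replicates 2 and 3, 5 and 3 principal cell genes passed. Intercalated cell markers had 1 lower gene of 11 and a median of -3.01. It was Rhcg, an ammonia channel, at 5.03 and 4.81 CPM against 14.8, 45.0, 53.5 and 126 CPM, a call lost in 10 of 23 alternatives. Without control-cell replicates 1, 2, 3 and 4 in turn, 5, 0, 0 and 3 intercalated cell markers were lower. Slc26a4 and Foxi1, the exchanger and the transcription factor of intercalated cells, were at 2.36 and 3.58 CPM and at 0.718 and 1.47 CPM. In control cells they spread from 1.31 to 53.5 CPM and from 1.20 to 23.9 CPM and overlapped the macula densa libraries.

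All 18 tested proximal tubule markers had a log2 fold change above 0, against 46.9% of all genes, with a median of 1.49, and 2 passed. These were Kap, at 42.8 and 63.6 CPM against 5.89 to 17.0 CPM (2.44 ± 0.66, edgeR adjusted p 0.0470), and the lactate transporter Slc5a12, at 5.03 and 6.84 CPM against 1.60 to 1.90 CPM (1.78 ± 0.46). Both calls were lost in 7 alternatives, and none was left without any 1 of macula densa replicates 1 and 2 or control-cell replicates 1, 2 and 3. Lrp2, the endocytic receptor megalin, was at 35.3 and 59.0 CPM against 13.9 to 27.5 CPM. Slc34a1, the phosphate transporter of the brush border, was at 20.3 and 39.8 CPM against 7.54 to 21.1 CPM, and neither passed. The sum of the list was 205 and 354 CPM in macula densa cells and 64.6 to 153 CPM in control cells.

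Markers of cells outside the tubule lay below 0, and few of them passed with control-cell replicate 4 included. Podocyte markers had 1 lower gene of 11 (Plce1) and a median of -3.31, and endothelial markers 2 of 15 (Egfl7 and Esam) and -3.11. Without replicate 4, 6 and 13 were lower. The calls of Plce1, Egfl7 and Esam were lost in 13, 8 and 14 of 23 alternatives. Nphs1, the slit diaphragm protein nephrin, was at 6.67 and 1.06 CPM against 74.0, 70.4, 41.9 and 1.76 CPM, and Podxl, the podocyte surface sialomucin, at 71.3 and 6.19 CPM against 642, 520, 352 and 21.8 CPM. Pecam1, an endothelial adhesion molecule, was at 16.7 and 3.50 CPM against 136, 123, 82.2 and 7.44 CPM. In all 3 genes control replicate 4 lay between the 2 macula densa libraries. Smooth muscle and renin cell markers summed to 64.0 and 44.1 CPM in macula densa cells and to 189 to 310 CPM in control cells. Of 10, 6 were lower (median -2.03): Acta2, Myh11, Tagln, Rgs5, Notch3 and Mylk. Notch3, a receptor of mural cells, was at 1.74 and 1.22 CPM against 14.2, 14.9, 16.1 and 9.81 CPM (-3.21 ± 0.49, edgeR adjusted p 0.00339). Without control-cell replicates 1, 2, 3 and 4 in turn, 3, 4, 2 and 8 of the list were lower, and 3 with library totals alone. The calls of Acta2, Myh11 and Tagln were lost in 11, 10 and 8 of 23 alternatives. Renin itself, Ren1, was at 1.44 and 0.977 CPM against 1.88 to 6.19 CPM and did not pass (edgeR adjusted p 0.0656). Leukocyte markers had 1 lower gene of 7 (Csf1r), fibroblast and mesangial markers 0 of 8 and erythroid markers 0 of 5. Epithelial junction genes had 1 lower gene of 17 (F11r, a junctional adhesion molecule, at 8.31 and 7.33 CPM against 16.5 to 19.2 CPM) and a median of -0.13. That median was 0.28 without control-cell replicate 4, with 1 gene higher and 2 lower. Epcam, a surface protein of epithelia, was at 47.5 and 58.2 CPM against 33.1 to 74.3 CPM.

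Most lower genes with the smallest p-values had close levels in the 4 control libraries, which a small p-value itself favours. Amotl2, an angiomotin of cell junctions, lies on chromosome 9 from 102716672 to 102733418. It was at 22.5 and 19.1 CPM against 133, 103, 118 and 90.8 CPM (-2.42 ± 0.25, edgeR adjusted p 0.000398). Dab2, an endocytic adaptor, was at 3.69 and 4.81 CPM against 27.4 to 36.5 CPM (-2.85 ± 0.30), and Litaf, an endosomal protein, at 1.95 and 2.28 CPM against 13.6 to 19.4 CPM (-3.0 ± 0.33). St6gal1, which adds sialic acid to glycans, was at 1.44 and 1.38 CPM against 17.8, 17.5, 16.9 and 26.2 CPM (-3.78 ± 0.44). Serinc3, a multipass membrane protein, was at 40.7 and 28.9 CPM against 121 to 160 CPM (-1.99 ± 0.23). Ahnak, a giant scaffold under the plasma membrane, was at 121 and 73.5 CPM against 365 to 422 CPM (-1.99 ± 0.25). Fgfr2, a receptor for fibroblast growth factors that overlaps Ctbp2 on the same strand and is uncertain, was at 4.10 and 3.91 CPM against 22.4 to 30.1 CPM. These genes, with Serpinb6b and Rbpms, kept their calls in every setting.

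The lower genes with the largest fold changes were of a different kind, and many were nearly absent from control-cell replicate 4. Wipf3, an actin regulator, was at 0.205 and 0 CPM against 8.53, 8.64, 6.00 and 0.310 CPM, and Zfp366 at 1.13 and 0.570 CPM against 29.2, 21.1, 23.5 and 3.10 CPM. Nova2, a splicing factor of neurons and endothelium, was at 0.513 and 0.0815 CPM against 7.87, 9.77, 10.5 and 0.723 CPM. Lims2, Efr3b and Rhoj, with -4.74, -4.95 and -4.58, were also lowest in replicate 4, at 1.65, 1.65 and 1.03 CPM. The calls of Wipf3, Efr3b, Nova2 and Rhoj were lost in 11, 12, 5 and 4 of 22 alternatives. Over all 556 lower genes, replicate 4 was the lowest of the 4 control libraries in 58.8%, against 38.0% of all genes. It was the highest in 25.9% of them, against 33.9% of all genes. Among the 382 higher genes it was the highest in 54.5% and the lowest in 17.8%. The podocyte and endothelial lists were lowest in replicate 4 too, and their part in the lower calls was not tested. Other genes among the largest decreases were as high in replicate 4 as elsewhere. Adgrg6, an adhesion receptor, had 1 and 2 counts in macula densa cells and was at 5.25, 4.60, 5.24 and 8.06 CPM in control cells (ratio 42.2, interval 14.3 to 206). Pgm5, a phosphoglucomutase-like protein of adherens junctions, was at 0.410 and 0.244 CPM against 10.6, 6.01, 10.5 and 10.7 CPM (-4.82 ± 0.77). S1pr3, a sphingosine 1-phosphate receptor, was at 0.205 and 0.163 CPM against 3.17 to 11.3 CPM (-4.88 ± 0.91). Fanca was at 0.103 and 0.163 CPM against 1.75 to 9.81 CPM (ratio 38.2, interval 12.9 to 187). Of the 7 genes with 0 counts in both macula densa libraries and at least 10 in each control library, Elf5 is given above. The others were Npy, Ccnjl, Emilin2, Jph2, Krt23 and Vegfc, which were at least 8.69-fold, 7.95-fold, 7.92-fold, 5.81-fold, 5.52-fold and 5.33-fold lower. Krt23, a keratin, was even across control cells at 1.31 to 1.76 CPM.

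Many basement membrane genes were lower in macula densa cells, with 10 of 24 lower (3.92% of all genes were), 1 higher (Frem1) and a median of -1.53. Podocyte and endothelial markers, with medians of -3.31 and -3.11, lay in the same direction, and both these lists and Col4a1 were lowest among control cells in replicate 4. The part of those cells in these calls was not tested. The lower ones were the collagen IV chains Col4a1 and Col4a2, Col18a1, the laminin chains Lama5, Lamb2 and Lamc1, Hspg2 (perlecan), Agrn (agrin), Fn1 (fibronectin) and Frem2. Col4a1 was at 46.6 and 27.1 CPM against 215, 225, 175 and 111 CPM (-2.30 ± 0.37, edgeR adjusted p 0.00437), and Lama5 at 29.4 and 31.3 CPM against 68.5 to 82.3 CPM (-1.30 ± 0.22). Frem1, which was higher, and Frem2 at 3.49 and 0.244 CPM against 10.9 to 21.4 CPM (-3.19 ± 0.74) are related proteins that moved apart. The lower count was 5 and 0 without macula densa replicates 1 and 2 and 14 without control-cell replicate 4. Col4a1 and Col4a2 share a bidirectional locus and overlap in annotation, so reads between them cannot be told apart. Npnt, nephronectin, a matrix ligand chosen after its values were seen, was at 22.8 and 11.2 CPM against 209, 175, 196 and 197 CPM (-3.52 ± 0.76, edgeR adjusted p 0.0194).

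Integrin and focal adhesion genes had 5 lower members of 28 (Itga3, Itgb4, Zyx, Lims2 and Pgm5), 1 higher (Tln2) and a median of -1.06. Without control-cell replicates 1, 2, 3 and 4 in turn, 4, 4, 3 and 15 of them were lower. The calls of Zyx and Tln2 were lost in 14 and 6 of 23 alternatives. Itga3, the laminin-binding integrin alpha 3 chain, was at 15.6 and 6.19 CPM against 71.6, 64.1, 57.0 and 21.9 CPM (-2.30 ± 0.50). Itgb4 was at 1.33 and 2.36 CPM and even across control cells at 5.17 to 6.92 CPM (-1.72 ± 0.38). Tln2, talin 2, was at 57.9 and 69.4 CPM against 13.1 to 35.2 CPM (1.61 ± 0.39). Targets of the mechanosensitive coactivators YAP and TAZ had 7 lower members of 16 (Ccn1, Ankrd1, Amotl2, F3, Lats2, Ptpn14 and Nuak2), 0 higher and a median of -2.01. The call of Ankrd1 was lost in 11 of 22 alternatives. Ptpn14 was at 21.1 and 10.4 CPM against 46.0 to 101 CPM (-2.30 ± 0.42) and F3, tissue factor, at 1.85 and 1.30 CPM against 3.72 to 5.43 CPM (-1.55 ± 0.32). With a single library left out, from 1 (macula densa replicate 2) to 10 (control-cell replicate 4) of these genes were lower. Summed over the list, control replicates held 685, 667, 592 and 362 CPM and macula densa libraries 228 and 190 CPM, so replicate 4 was lowest here too but above both macula densa libraries. Annexins, a family chosen after the data were seen, had 3 lower genes of 9 (Anxa1, Anxa2 and Anxa3) and 0 higher, with a median of -0.81. Anxa2, a calcium-dependent membrane binder, was at 3.28 and 5.38 CPM against 36.5, 28.6, 22.4 and 13.5 CPM (-2.53 ± 0.39) and kept its call in every setting. Adhesion receptors of the G protein-coupled class, chosen in the same way, had 3 lower (Adgrf5, Adgrg6 and Adgrl4), 2 higher (Adgrf1 and Adgra3) and a median of -2.20 over 13 genes.

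Immediate early genes, which respond within minutes to stimulation or to tissue handling, had 6 lower members of 17, 1 higher and a median of -1.55. Junb was at 4.31 and 5.95 CPM against 14.4 to 33.9 CPM (-2.06 ± 0.38, edgeR adjusted p 0.00956), Atf3 at 1.74 and 2.53 CPM against 6.67 to 12.3 CPM (-2.22 ± 0.41) and Dusp1, a phosphatase of MAP kinases, at 3.39 and 2.69 CPM against 8.57 to 45.6 CPM (-2.95 ± 0.57). Fosl2, Egr1 and Ier2 were also lower and Ier3 higher (1.82 ± 0.48), a call of Ier3 that was lost in 10 of 23 alternatives. Fos was at 6.46 and 16.3 CPM against 19.9 to 47.0 CPM and did not pass (edgeR adjusted p 0.138). Jun, at 41.2 and 42.9 CPM against 57.8 to 81.7 CPM, did not pass either (0.0985, edgeR). No lower call was left without either macula densa library. Interferon response and antigen presentation genes had 1 lower gene of 19 (Sp100), a call lost in 10 of 23 alternatives. All 19 lay below 0, as did all genes of the podocyte and endothelial lists, and the median was -1.58 (46.9% of all genes lay above 0). The list summed to 349, 326, 284 and 143 CPM in control replicates 1 to 4, lowest in replicate 4 as those lists were, and to 109 and 87.3 CPM in macula densa cells; the part of those cells was not tested. Cell cycle genes had 1 lower of 8 (Ccnd2, at 2.46 and 1.14 CPM against 23.9, 23.1, 18.6 and 3.62 CPM). Heat shock genes had 1 lower of 17 (Cryab, -3.10 ± 0.64), with a median of 0.20, endoplasmic reticulum genes 0 of 31 in either direction and tubular injury genes 0 of 9.

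Mitochondrial and ribosomal genes gave no calls with all libraries. The 13 mitochondrially encoded protein genes all lay above 0 (median 0.82), and mt-Co1, a cytochrome oxidase subunit, was at 4471 and 5020 CPM against 1622, 1513, 2300 and 4791 CPM (0.89 ± 0.45, edgeR adjusted p 0.253). Control replicate 4 was the library nearest to the macula densa, and without it 12 of the 13 passed. Nuclear subunits of oxidative phosphorylation had a median of 0.40 over 77 genes, with 73 above 0, and 18 passed without replicate 4. Cytosolic ribosomal protein genes had a median of 0.12 over 85 genes, and glycolytic genes -0.29 over 18 with 0 calls. Without control-cell replicate 4, the glycolytic median was 0.15 and 2 of those genes were higher. Of 19 genes of fatty acid binding and oxidation, Hadh, a mitochondrial oxidation enzyme, was higher (1.09 ± 0.28) and Pparg lower, with 0 counts in both macula densa libraries (at least 3.32-fold). Their calls were lost in 10 of 23 and 11 of 21 alternatives. Of all genes, 2.69% were higher and 3.92% lower.

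The following genes were chosen after their values were seen. Itpr1, the inositol trisphosphate receptor that releases stored calcium, was at 206 and 211 CPM against 95.1, 105, 103 and 152 CPM (0.87 ± 0.22, edgeR adjusted p 0.0368), a call lost in 11 alternatives. Kidins220, a scaffold of neurotrophin and ephrin receptors, was at 178 and 201 CPM against 79.1 to 121 CPM (1.04 ± 0.22). Among the lower genes App, the amyloid precursor protein, was at 234 and 222 CPM against 392 to 532 CPM (-1.02 ± 0.22, edgeR adjusted p 0.0198). Timp3, an inhibitor of metalloproteases, was at 99.1 and 77.0 CPM against 155 to 311 CPM (-1.51 ± 0.31), and Cald1, caldesmon, at 33.2 and 9.20 CPM against 86.7 to 293 CPM (-3.20 ± 0.63).

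The same comparison in the 6 libraries from mice given low salt food and enalapril, which blocks angiotensin-converting enzyme (150 mg per litre of drinking water, 14 days), used different libraries throughout. There 1031 genes (7.27%) passed, 446 higher (3.15%) and 585 lower (4.13%). Of the 382 genes higher on control diet, 369 had the same sign there and 199 passed. Of the 556 lower genes, 539 had the same sign and 264 passed. The share with the same sign over all genes tested is not given here, so the same-sign counts only describe the called genes. The difference between these cell comparisons was tested in the same fit, and 0 genes passed with edgeR (997 at an unadjusted p under 0.05, or 7.03%, smallest adjusted p 0.382), while 13 passed with the DESeq2 Wald test. Values on low salt are therefore given side by side and no gene is called particular to control diet. Pappa2 and Nos1 had 9.41 and 8.33 there, Irx1 and Irx2 3.03 and 2.99, Slc5a1 2.58 and Ahnak -0.60. Among the largest control-diet increases, Slc4a10 had 3.19 there, Slc6a7 6.81 and Frem1 7.20. On control diet Stc1 and Anxa1 had -5.82 and -2.72, Stc1 with very few macula densa counts, and on low salt they had 0.21 and 0.64. Hist1h2bc, a histone gene with close copies that is uncertain, had -2.05 on control diet and 0.20 on low salt.

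**Figure D5:**
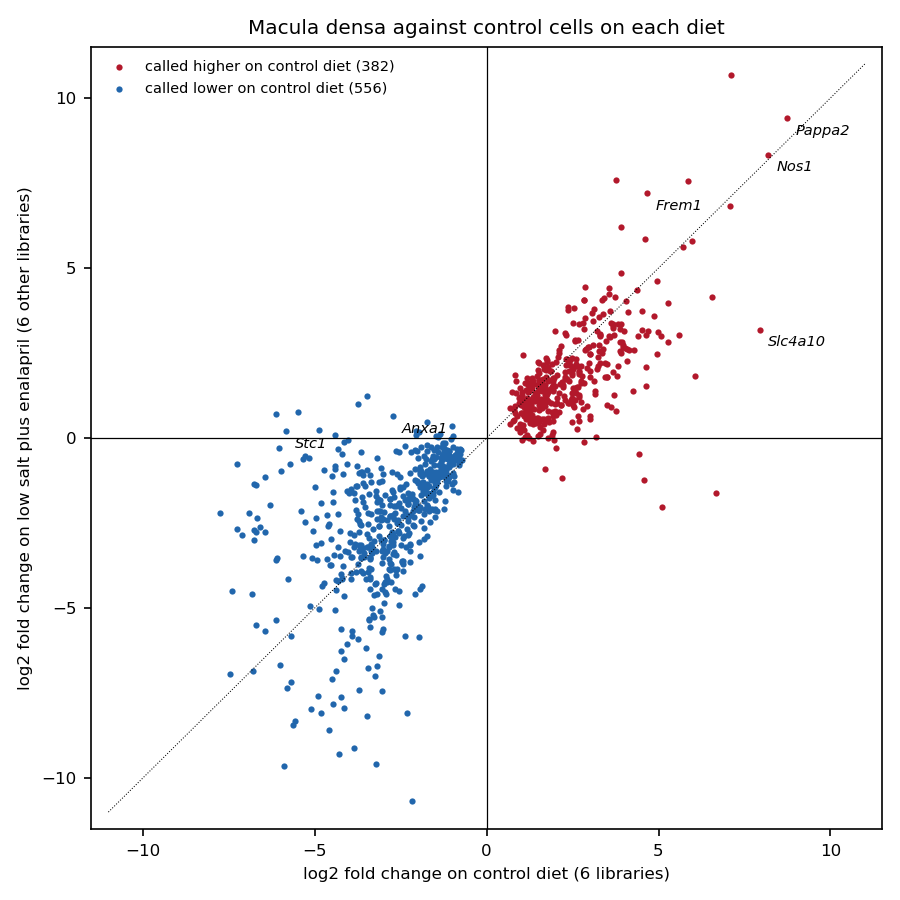
Log2 fold change of macula densa against control cells on control diet (x, 6 libraries) and on low salt plus enalapril (y, 6 other libraries) for the 938 genes called on control diet; red marks higher and blue lower genes, solid lines mark 0 and the dotted line equal values. Most points share their sign, 369 of 382 and 539 of 556, and the like share over all genes is not given. Fitted values beyond about -5 or 5 often rest on a group with few counts.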

How the data were processed

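RNA of sorted macula densa and control cells was sequenced in 12 libraries. Reads were handled with STAR 2.61 and Partek on mm10, per the submitters' processing notes. The authors deposited a table of estimated counts per gene, of which 14.8% of values are not whole (tolerance 1e-06), and these were rounded here. How reads shared between genes were split, and whether strand was used, is not given in the sources used here. Exons of 61 genes called higher and 123 called lower overlap those of another gene on the same or the other strand. Not all of these are marked above.

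Genes were tested with edgeR 4.0.16 (R 4.3.3): TMM scaling, filterByExpr with a minimum count of 10 and a total of 15, and a quasi-likelihood fit of all 12 libraries with a coefficient per group, so that the groups share an estimate of spread. The contrast was macula densa minus control cells on control diet, with Benjamini-Hochberg adjustment over 14180 genes and a threshold of 0.05. Of 23378 genes in the table, 23351 matched GENCODE M21 (GRCm38), which gave the coordinates. Fitted log2 fold changes are given with their standard error after ±. Where a group had 0 counts, a fold is a lower bound against 3 counts per library. For most genes where a group had 1 to 3 counts in all, a ratio is given, mostly with an exact 95% counting interval. That interval uses counts pooled over libraries and leaves out the spread between them. The same steps on simulated counts for this comparison recovered 47.5% of 200 genes changed 4-fold among 13714, with 7 false calls. The simulation gave each unchanged gene the same mean level in all libraries and drew genes independently. It lacks the differences in cell type RNA seen between control libraries, so its false calls need not hold for these data.

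Genes named are the 15 in each direction with the largest change (at least 5 CPM in the higher group, no overlap between groups), the 10 in each direction with the smallest p-value, genes with 0 counts in a whole group, the markers, and list members as examples; those chosen after their values were seen are marked. The members and the lists were chosen with earlier results of these data known. Alternatives tried were DESeq2 1.42.0 (size factors and Wald test), limma 3.58.1 voom, library totals, other filters and thresholds, replicate blocks, subsets of libraries and leaving out each library. No replicate pair had the same values. Some genes, and a search of promoter sequence, are not reported here.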

Additional observations from a re-analysis of the deposited data

Results flagged for a closer look

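In 21 of 271 sets of 4 control-cell libraries examined, 1 library lay apart from the other 3 by Dixon's criterion; about 13.6 would be expected by chance at 1 in 20. That rate does not hold for Ccn3, Slc4a10, Slc6a7, Gm45847 and Nt5c1a, where the other 3 libraries were all at 0 counts and any count sets the fourth apart. Replicate 4 was that library in 13 sets, replicate 2 in 4, replicate 3 in 3 and replicate 1 in 1. All values here are log2 CPM.

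Replicate 4 was low in genes or lists named among the lower ones. Ccnd2 was at 1.94 there and at 4.23 to 4.60 in the others. Klf2 was at 3.03 against 5.53 to 5.91, and Nova2 at -0.07 against 3.02 to 3.42. Nphs1, the podocyte gene, was at 0.99 against 5.40 to 6.21. Sema3f was at 2.80 against 4.66 to 5.0, and Slc43a3 at -0.64 against 3.83 to 4.12. Sparcl1 was at 4.60 against 5.61 to 5.78, Wipf3 at -0.89 against 2.64 to 3.15, and Zfp366 at 1.73 against 4.42 to 4.88. The mean of the YAP and TAZ target list was 3.91 there against 4.66 to 4.71, and that of the adhesion G protein-coupled receptors 2.79 against 3.82 to 3.86. Replicate 4 was high for St6gal1, at 4.73 against 4.09 to 4.17, and for Nt5c1a, at -0.64 against -2.13, the value that stands for 0 counts.

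Replicate 1 was high for Emilin2, at 2.20 against 0.65 to 0.89. Replicate 2 was low for Pgm5, at 2.64 against 3.42 to 3.46. It was high for Vash2 (-1.26 against -1.63 to -1.57), for Ccn3 and for Slc4a10 (both -1.63 against -2.13). Replicate 3 was high for Lrp2, at 4.79 against 3.83 to 3.94, for Gm45847 (-1.25 against -2.13) and for Slc6a7 (-1.63 against -2.13). In Ccn3, Slc4a10 and Slc6a7 the library apart held the only count of the control cells.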

How the results depend on the processing

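The number of genes past the threshold (938, with 382 higher and 556 lower) moved by over 1.5 times in several alternatives, and the cause was not tested. It was 608 (344 lower) among genes with a mean of at least 5 CPM, 241 (128 higher, 113 lower) at a threshold of 0.01, and 468 (215 and 253) with only the 6 control-diet libraries fitted. It was 2000 (589 and 1411) with the DESeq2 Wald test, 1919 (1028 and 891) with limma voom, and 2162 (700 and 1462) with only the 4 libraries that share description numbers. Library totals gave 328 lower genes. Leaving out 1 of the 12 libraries gave 122 to 2490 genes, 95 to 876 of them higher and 27 to 1614 lower. Control-cell replicates 1, 2 and 3 left 571, 459 and 415.

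For the difference between diets, the 0 genes of edgeR stayed at 0 when each library was left out, and became 13 with the DESeq2 Wald test and 3 with a block by description number. Whether a shared number marks paired libraries is not given in the sources used here. Deviations of macula densa replicates 1 and 2 and the control-cell libraries with the same description number correlated at 0.23 and -0.02. Numbers in the titles gave 0.25 and -0.23. With 2 macula densa libraries their deviations mirror each other, so these values cannot settle the pairing. A replicate block by title number gave 1925 genes (681 higher, 1244 lower), and one by description number 2292 (742 and 1550).

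Of the 201 called genes followed, 131 and 158 lost the call without macula densa replicates 1 and 2, and 0 lost it without control-cell replicate 4. None changed sign. Levels under 0.244 to 0.328 CPM rest on fewer than 3 counts in a library.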
